A study of Mus musculus with 7 samples.

Results

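The BCL2 family holds the proteins that decide at the mitochondrial outer membrane whether a cell survives. The genes described here are the 10 rows of the 48440 in the deposited table whose symbol is Bcl2, Bcl2l1, Bcl2l2, Mcl1, Bak1, Bcl2l11, Bid, Bad, Bmf or Pmaip1. Their expression was measured by RNA-seq in LSK cells, the lineage-negative, Sca1 and cKit positive fraction of bone marrow (BM), in which hematopoietic stem cells (HSCs) and multipotent progenitors reside. The BM came from wild-type mice (4 libraries) or from PROSER1 KO mice, whose constitutive KO was made with an endonuclease (3 libraries). PROSER1 is a partner of the TET proteins, which oxidize methylated cytosines. All recipients were C57BL/6 mice that had been lethally irradiated with 9.5 Gy, split over doses 3 hours apart, and LSK cells were sorted 77 days after the transplant. The KO was present in every donor cell, whereas the recipients were not described as KO, and no step that removed surviving recipient cells was stated for this experiment. The ages of the mice and the number of mice per library were not given in the sources used here, so that p-values measure the spread between libraries.

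Anti-apoptotic family proteins (BCL2, BCL-XL, BCL-W and MCL1) bind and restrain the effectors BAX and BAK, which otherwise open pores in the outer mitochondrial membrane and release cytochrome c. BH3-only proteins (BIM, BID, BAD, BMF and NOXA) are induced or activated by stress or loss of growth factors and neutralize the anti-apoptotic proteins or activate the effectors. MCL1 is known to be required for HSC survival, and its messenger RNA (mRNA) and protein are short-lived. Much of the family is controlled at the level of protein, which RNA-seq does not measure.

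None of the 10 members differed between libraries labelled PROSER1 KO and wild-type libraries at the thresholds used (0 of 10, for an adjusted limma p under 0.05, Benjamini-Hochberg, with more than a 1.5-fold difference). Of all 16251 genes tested, 0.258% were called. edgeR and DESeq2 on the recovered read pairs also called 0 of the 10, against 0.246% and 0.873% of the genes they tested. At an unadjusted p under 0.05 there were 2 of the 10 with limma (Bcl2l2 and Bcl2l1, against 9.73% of all genes), 2 with edgeR (against 9.86%) and 5 with DESeq2 (the same 2, Bcl2, Bmf and Pmaip1, against 7.03%). The share for DESeq2 is over 26182 genes, including genes too low for the limma fit. Of the 16251 genes in that fit, 1654 had such a p with DESeq2. Among the 11541 genes at or above the mean level of the least abundant member, 1274 did. The lowest adjusted p of any member with DESeq2 was 0.291. The 95% limma interval lay wholly within 1.5-fold in either direction for 8 members, with Bmf and Pmaip1 as the exceptions. Of all genes tested 65.7% had such an interval, and of the 11541 genes at or above the mean level of the least abundant member 90.3% did.

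The libraries held 33143619 to 45140743 read pairs on genes, and a gene without a read could have had up to 3 read pairs, at most 3.48 after normalization, by counting error only. The 10 LSK genes fixed as markers were expressed in all 7 libraries, with summed levels of 116899 to 130861 normalized read pairs. Proser1 mRNA was not lower in the libraries labelled PROSER1 KO. Wild-type libraries had 2019, 2153, 2103 and 2077 normalized read pairs of Proser1, against 2464, 2359 and 2338 in KO libraries. The files do not show which bases the allele changes, so Proser1 mRNA does not check the label. Wild-type replicate 4 stood apart by its plasma cell RNA. Wild-type replicate 1 stood apart by genes of the immediate early response, which rise within minutes of stress or handling, with a sum of 50389 against 10979 to 22236 in the other 6 libraries.

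The level per exon length gave a graded order with Mcl1 at its head. In RPKM, read pairs scaled to exon length and to library depth, with the exons of all isoforms joined, the means over the 7 libraries were 89.4 ± 5.95 (SD, n = 7) for Mcl1 and 30.6 ± 2.17 for Bak1, the gene of the effector BAK. Bcl2 followed at 18.8 ± 1.32 and Bid at 13.6 ± 0.517. The ranges of these 4 genes overlapped neither each other nor the rest. Bcl2l2 (6.78 ± 0.533), Bad (6.35 ± 0.596), Bcl2l1 (5.33 ± 0.580) and Bcl2l11 (4.24 ± 0.228) lay close together, and each overlapped the next of the 4 in range. Bmf (2.46 ± 0.626) lay below all of these in every library, and Pmaip1 was lowest at 1.27 ± 0.526, with ranges that overlapped but with Bmf above Pmaip1 in all 7 libraries. Among these 4, pairs that are not neighbors could be apart: Bcl2l2 lay above Bcl2l1 and Bcl2l11, and Bad above Bcl2l11, without overlap. Bad and Bcl2l1 overlapped in range, but Bad was the higher in all 7 libraries.

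**Figure D1:**
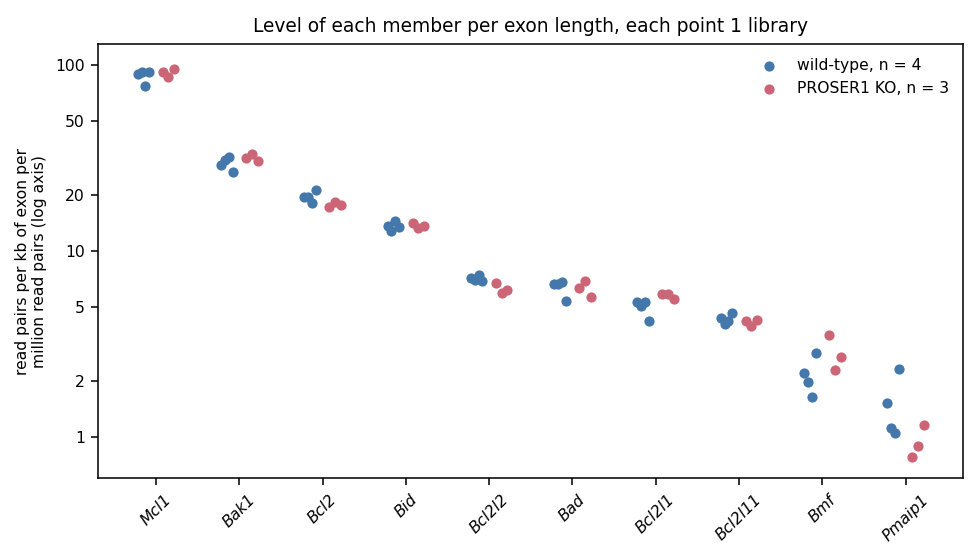
Level of each member in RPKM (read pairs scaled to exon length and library depth, log axis), ordered by the mean, with 1 point per library (blue, 4 wild-type; red, 3 PROSER1 KO). Mcl1 lay between 77.3 and 95.7 in the 7 libraries and Pmaip1 between 0.779 and 2.33.

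Among the anti-apoptotic members, Mcl1 held 71.4% to 74.5% of the summed RPKM in wild-type libraries and 74.2% to 76.4% in PROSER1 KO libraries. The summed RPKM of the 4 anti-apoptotic members was 120 ± 7.58 (SD, n = 4) in wild-type and 121 ± 4.21 (SD, n = 3) in PROSER1 KO libraries. That of the 5 BH3-only members was 28.0 ± 0.886 and 27.9 ± 0.969. The ratio of these sums was 3.85 to 4.64 in wild-type and 4.19 to 4.58 in PROSER1 KO, so that the KO libraries lay inside the wild-type range. These sums describe mRNA per exon length and were not tested.

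Bcl2l2 and Bcl2l1 were the 2 members whose groups did not overlap, as in 10% of all genes tested, and they moved in opposite directions. Their RefSeq promoter windows (GRCm38.p6, 250 bases before to 50 after the start) are shown with CpG dinucleotides in capitals, since cytosines in CpG are the bases that TET proteins act on. That of Bcl2 is added as the one with the most CpG among the windows of 9 members, without Pmaip1. DNA methylation was not measured in these libraries. The windows, 5′ to 3′ on the strand of the gene, are chr14:54883175-54883474 (forward), chr2:152831679-152831978 (reverse) and chr1:106714241-106714540 (reverse).
Bcl2l2: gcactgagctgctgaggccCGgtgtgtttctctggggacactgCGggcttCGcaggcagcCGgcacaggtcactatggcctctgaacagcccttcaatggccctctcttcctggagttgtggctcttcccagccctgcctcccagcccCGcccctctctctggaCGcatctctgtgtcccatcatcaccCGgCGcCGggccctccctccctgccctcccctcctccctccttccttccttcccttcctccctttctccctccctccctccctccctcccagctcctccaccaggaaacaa
Bcl2l1: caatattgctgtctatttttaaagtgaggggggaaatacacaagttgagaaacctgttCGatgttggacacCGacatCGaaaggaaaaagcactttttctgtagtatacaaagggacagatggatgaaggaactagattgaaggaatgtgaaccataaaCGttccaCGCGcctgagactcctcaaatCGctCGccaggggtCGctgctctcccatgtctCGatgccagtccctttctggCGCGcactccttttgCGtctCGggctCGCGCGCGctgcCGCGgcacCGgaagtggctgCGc
Bcl2: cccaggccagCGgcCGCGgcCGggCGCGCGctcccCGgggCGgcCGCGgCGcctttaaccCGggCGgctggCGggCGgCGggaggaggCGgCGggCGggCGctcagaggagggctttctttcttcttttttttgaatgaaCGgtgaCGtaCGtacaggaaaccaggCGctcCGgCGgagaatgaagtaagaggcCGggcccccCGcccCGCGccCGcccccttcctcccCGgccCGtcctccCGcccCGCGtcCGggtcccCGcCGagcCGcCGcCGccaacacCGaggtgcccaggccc
They hold 9, 22 and 44 CpG. The median over 32817 mouse promoter windows was 7, and 54.2%, 76.9% and 97.8% of all windows held fewer. Bcl2l1 has other starts, whose windows hold 1 and 14 CpG. Of 15 windows of 9 members, the fewest CpG were in that of the downstream Bcl2l1 start and the most in that of Bcl2. The window of Bcl2 holds 7 copies of the GC box GGGCGG on either strand, that of Bcl2l2 holds 1 and the printed window of Bcl2l1 holds 0, where 35.6% of all windows hold at least 1. Of 6 further motifs searched on both strands, 4 were in none of the 15 windows: the E-box CACGTG (7.15% of all windows), the cAMP response element TGACGTCA (1.79%), the STAT site TTCNNNGAA (8.29%) and the TATA box TATAAA (13.6%). The FOXO site GTAAACA was in 1 window, upstream of Bcl2l11 (3.65% of all windows), and the CCAAT box CCAAT was in 5, of Bcl2l11, Bad and Bmf (37.4%). A match is a run of letters and not a bound site.

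Bcl2l2 (ENSMUSG00000089682, forward strand of chromosome 14 from 54883377 to 54888234, GRCm38) encodes BCL-W. In order of replicate, the wild-type libraries had 1265, 1203, 1262 and 1262 normalized read pairs and the PROSER1 KO libraries 1161, 1012 and 1087. Every KO library lay below every wild-type library. The log2 fold change was -0.20 (standard error 0.065, 95% interval -0.35 to -0.06), with an unadjusted p of 0.012 and an adjusted p of 0.342. The exact two-sided permutation p over all 35 assignments of 7 libraries to groups of 4 and 3 was 0.0286, the smallest that this design can give. The gene shares 594 exon bases with a readthrough gene on the same strand, Gm20521, at a mean of 0.783 normalized read pairs.

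Bcl2l1 (ENSMUSG00000007659, reverse strand of chromosome 2 from 152780668 to 152831728) encodes BCL-XL, on which maturing erythroid cells and platelets depend. Its normalized read pairs were 964, 901, 932 and 784 in wild-type and 1050.5, 1028 and 992 in KO libraries. Every KO library lay above every wild-type library, and wild-type replicate 4 was the lowest of all. The log2 fold change was 0.20 (standard error 0.082, 95% interval 0.01 to 0.38, adjusted p = 0.470), with an exact permutation p of 0.0571. Without wild-type replicate 4 the log2 fold change was 0.13, at an adjusted p of 0.576. The 7 erythroid markers summed to 496 to 1238 normalized read pairs in wild-type and 846 to 1240 in KO libraries, and the 5 megakaryocyte markers to 5162 to 6354 and 5906 to 7795. Most of the megakaryocyte sum came from Itga2b, at 4627 to 6803 over all libraries. Both lists were highest in KO replicate 1, which also had the highest Bcl2l1, and lowest in wild-type replicate 1, which had the highest Bcl2l1 of the wild-type libraries. Their part in the difference was not tested.

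Bcl2 (ENSMUSG00000057329, reverse strand of chromosome 1 from 106538178 to 106714274) is the founding anti-apoptotic gene of the family. It shares 558 exon bases with D630008O14Rik on the opposite strand, at a mean of 14.9 normalized read pairs. Bcl2 had 7008, 6878, 6352 and 7913 normalized read pairs in wild-type libraries and 6147, 6401 and 6381 in KO libraries. Wild-type replicate 3 lay below 2 of the 3 KO libraries, so the groups overlapped, and wild-type replicate 4 was the highest. The log2 fold change was -0.15 (standard error 0.069, 95% interval -0.31 to 0.00, adjusted p = 0.515), and -0.10 without wild-type replicate 4.

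Mcl1 (ENSMUSG00000038612, forward strand of chromosome 3 from 95658788 to 95663176) was the most abundant member on either scale. Its normalized read pairs were 12068, 12149, 10069 and 12795 in wild-type and 12147, 11327 and 12816 in KO libraries. Wild-type replicate 3 was the lowest and the other 6 libraries were intermixed. Its log2 fold change was 0.04 (95% interval -0.14 to 0.23, adjusted p = 0.911), and its sign turned without wild-type replicate 3.

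**Figure D2:**
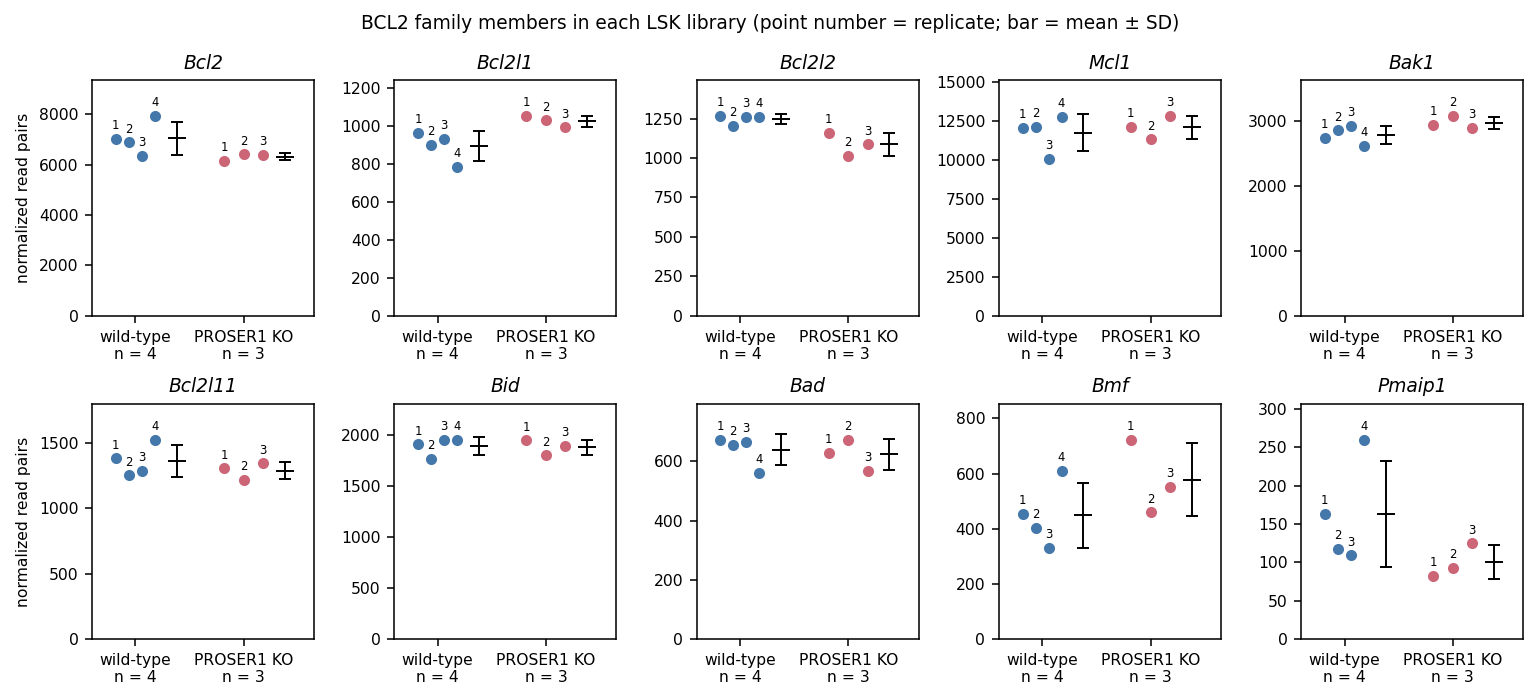
Normalized read pairs of the 10 members in each library (linear axes from 0), with the replicate number above each point and the mean ± SD beside each group (blue, wild-type, n = 4; red, PROSER1 KO, n = 3). The groups are apart for Bcl2l1 (highest wild-type 964, lowest KO 992) and for Bcl2l2 (lowest wild-type 1203, highest KO 1161) and overlap for the other 8.

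Bak1 (reverse strand of chromosome 17 from 27019810 to 27029009) was the only effector among the members. Its normalized read pairs were 2740, 2854, 2924 and 2621 in wild-type and 2938, 3073 and 2894 in KO libraries. The KO libraries were in the upper part of the range, and wild-type replicate 3 lay above KO replicate 3. A log2 fold change of 0.09 resulted (95% interval -0.03 to 0.21, adjusted p = 0.614). On the opposite strand, Ggnbp1 shares exon bases with Bak1, and the strand setting used in counting was not given in the sources used here. Bax, the other main effector, had 829 to 1013 normalized read pairs in wild-type and 801 to 991 in KO libraries (log2 fold change -0.08, 95% interval -0.30 to 0.14, adjusted p = 0.843). Bok, a related effector that is regulated by protein turnover, had 157 to 224 and 146 to 199 (log2 fold change -0.17, adjusted p = 0.804).

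Of the BH3-only members, Bid (reverse strand of chromosome 6 from 120891930 to 120916853), Bcl2l11 (forward strand of chromosome 2 from 128126038 to 128162547) and Bad (forward strand of chromosome 19 from 6941861 to 6951899) held narrow ranges. Bid, whose protein links death receptors to mitochondria after cleavage by caspase 8, varied by a ratio of 1.11 between its highest and lowest library, the least of the 10. Its means were 1893 ± 88.2 (SD, n = 4) and 1877 ± 73.8 (SD, n = 3) normalized read pairs, with a log2 fold change of -0.01 (95% interval -0.14 to 0.12). It shares 628 exon bases with Bcl2l13 on the opposite strand, which had a mean of 2776. Bcl2l11, the gene of BIM and a target of FOXO factors when growth factors are lost, had 1381, 1250.3, 1283 and 1523 in wild-type and 1304, 1215 and 1343 in KO libraries. Its highest value was again in wild-type replicate 4, and the log2 fold change was -0.08 (95% interval -0.25 to 0.10, adjusted p = 0.806), or -0.019 without that library. Bad, whose protein is held inactive by phosphorylation under survival signals, had 639 ± 52.0 and 623 ± 52.9 (log2 fold change -0.04, 95% interval -0.25 to 0.18). Bad shares 524 exon bases with Gpr137 on the opposite strand.

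Bmf and Pmaip1 were the least abundant and the most variable members. Bmf (reverse strand of chromosome 2 from 118528757 to 118549687) encodes a BH3-only protein that binds dynein light chains. Its normalized read pairs were 455, 403, 331 and 609 in wild-type and 723, 459 and 553 in KO libraries. KO replicate 1 was highest, but wild-type replicate 4 lay above the other 2 KO libraries. On average the log2 fold change was 0.37 (standard error 0.210, 95% interval -0.10 to 0.85, adjusted p = 0.605). It was 0.53 without wild-type replicate 4, at an adjusted p of 0.415, and 0.20 without KO replicate 1, at 0.817.

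Pmaip1 (ENSMUSG00000024521) encodes NOXA, a p53 target whose protein binds MCL1. Its normalized read pairs were 163, 118, 109 and 260 in wild-type and 82.4, 93.1 and 125 in KO libraries. Wild-type replicates 1 and 4 lay above all KO libraries, whereas KO replicate 3 lay above wild-type replicates 2 and 3. The log2 fold change of -0.63 was the largest of any member (standard error 0.300, 95% interval -1.31 to 0.05, adjusted p = 0.535, exact permutation p = 0.171). Without wild-type replicate 4 it was -0.38, at an adjusted p of 0.662. The interval runs from no difference to a fold of 0.405, so that a lower level of Pmaip1 by more than 1.5-fold could be neither shown nor excluded at this spread.

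**Figure D3:**
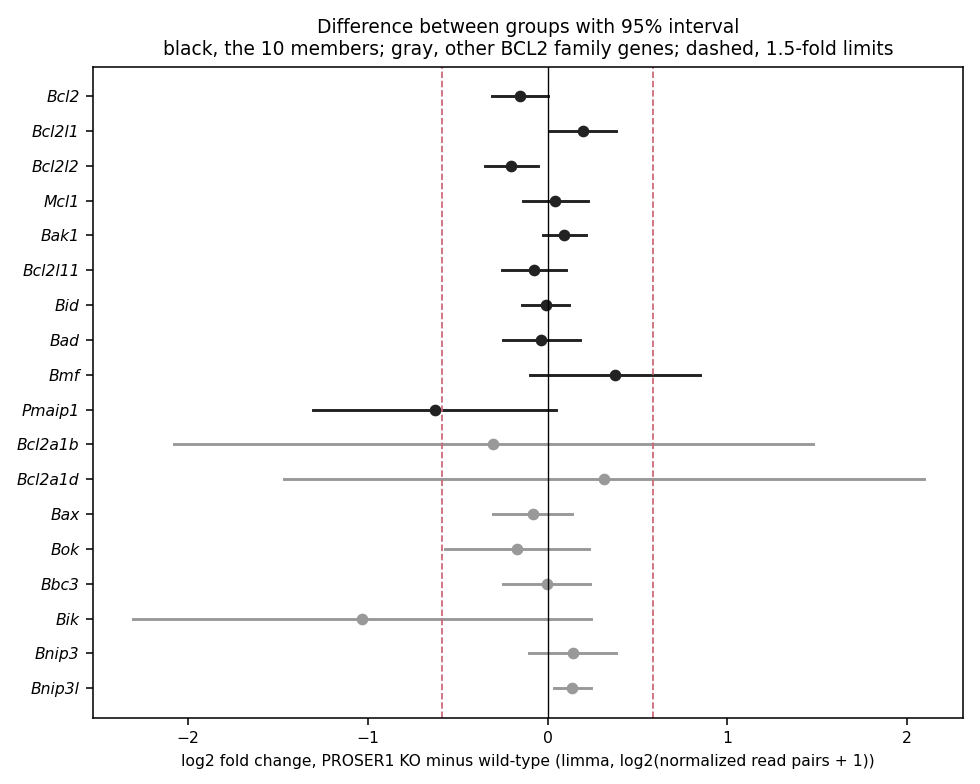
Log2 fold change (PROSER1 KO minus wild-type) with its 95% limma interval for the 10 members (black) and the 8 other family genes that were tested (gray), with dashed lines at 1.5-fold. The intervals of Bmf and Pmaip1 cross a dashed line, and those of the other 8 members lie between the lines.

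RNA of plasma cells varied between libraries, and some members shared its order within the wild-type or the KO group, but none within both. The cells were sorted as lineage-negative, Sca1 and cKit positive, and whether this gate left out every plasma cell was not tested. Markers of plasma cells and of other blood lineages were detected, and which cells their RNA came from was not tested. The 7 plasma cell markers (Jchain, Sdc1, Mzb1, Xbp1, Prdm1, Irf4 and Tnfrsf17) summed to 293939, 242510.3, 170818 and 428871 normalized read pairs in wild-type and 222249, 199947 and 298722 in KO libraries. Most of each sum came from Jchain, at 151607 to 384345 over the 7 libraries. The order of the 4 wild-type libraries (replicate 4, then 1, 2 and 3) was that of Pmaip1, Bcl2 and Bmf. Each of the 7 markers also had that order in the wild-type libraries. Among the KO libraries, replicate 3 was highest for the plasma cell sum, Pmaip1, Bcl2l11 and Mcl1, but not for Bcl2 or Bmf. The marker Prdm1 was instead highest in KO replicate 1 (1175). Ly6a, the gene of the sort marker Sca1, had the order of the plasma cell sums in both groups. Its normalized read pairs were 5256, 4886, 4006 and 6822 in wild-type and 4471, 3961 and 5682 in KO libraries. The share of all genes with such an order was not counted. All 7 markers had negative log2 fold changes, and 0 of the 7 were called with limma, 0 with edgeR and 0 with DESeq2. Immunoglobulin genes took 5.15% to 12.0% of read pairs in wild-type and 5.80% to 8.71% in KO libraries. Fewer cells of a type and less RNA per cell cannot be told apart in bulk RNA, and the part of plasma cell RNA in the values of Pmaip1, Bmf, Bcl2 and Bcl2l11 was not tested. With the immunoglobulin genes left out and the size factors recomputed, Pmaip1 had a log2 fold change of -0.63 and Bcl2 one of -0.15. That step changes the scaling and takes out no read of Pmaip1 or Bcl2. It therefore cannot show how much plasma cell RNA their values hold.

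**Figure D4:**
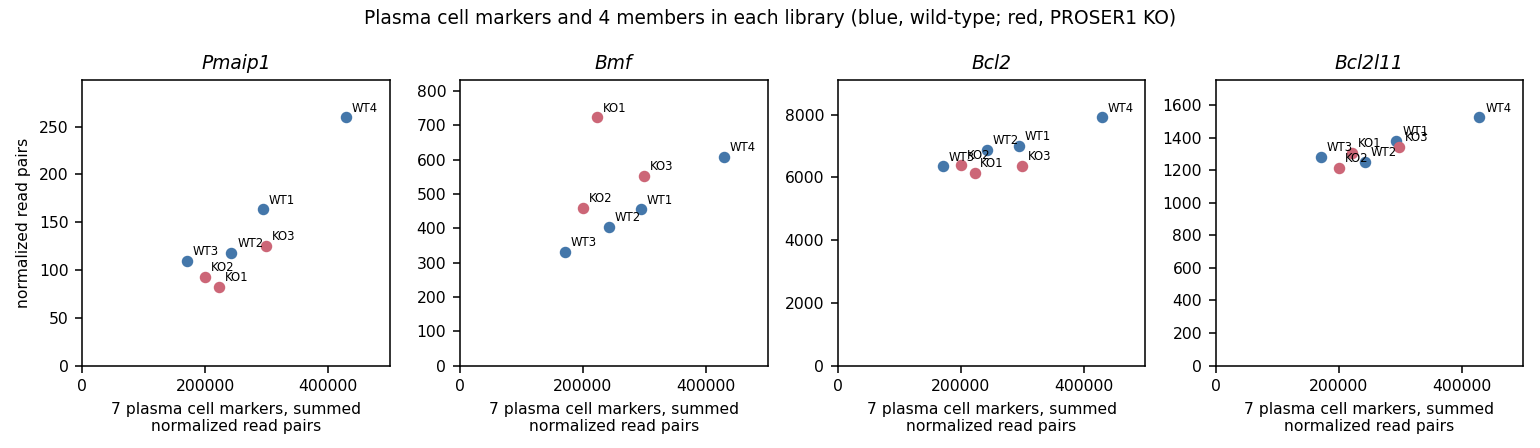
Normalized read pairs of Pmaip1, Bmf, Bcl2 and Bcl2l11 against the summed normalized read pairs of 7 plasma cell markers, with 1 point per library (blue, wild-type, WT1 to WT4; red, PROSER1 KO, KO1 to KO3). Jchain makes up most of each sum. Wild-type replicate 4, with a sum of 428871, has the highest Pmaip1 (260), Bcl2 (7913) and Bcl2l11 (1523).

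The 7 B cell markers summed to 5724, 4674, 3397 and 6827 normalized read pairs in wild-type and 5352.5, 3447 and 5094 in KO libraries. The wild-type sums had the same order as for the plasma cell markers. In both groups the order of the sums was that of Bmf, with KO replicate 1 first. The KO order was also that of Bcl2l2, Bid and the sums of the erythroid and the T and natural killer cell markers. How many of all genes have these orders was not counted. Single B cell markers departed from the order of their sum. Cd79a and Cd79b, most of the sum, were highest among KO libraries in replicate 3 (1881 and 1969). Pax5 and Vpreb1 were lowest in wild-type replicate 4 (55.6 and 24.3), which had the highest Bmf of the wild-type libraries. Of the 7 markers, 3 had positive and 4 had negative log2 fold changes. The part of B cell RNA in the values of Bmf was not tested. Markers of T and natural killer cells summed to 2581 to 3425 and 2703 to 4431, highest in KO replicate 1, which also had the highest Bmf and Bcl2l1. Most of this sum came from Nkg7, at 1950 to 2830 over the 7 libraries. The T cell gene Cd3g was 697 in KO replicate 1 and 20.9 to 52.9 in the others. Cd3d was 106 there against 1.80 to 21.1, and Cd3e, Cd8a and Trbc1 were also highest there. Cd4, Nkg7 and Klrb1c were highest in wild-type libraries. The part of T cell RNA in the values of Bmf and Bcl2l1 was not tested. Granulocyte and monocyte markers summed to 18229 to 20999 and 16951 to 20634, and mast cell and basophil markers to 1082 to 1339 and 1130.0 to 1210.1. Most of the granulocyte and monocyte sum came from Mpo, at 14897 to 19269 over the 7 libraries. No gene of these lists was called with limma, and DESeq2 called 1, the basophil protease Mcpt8 (adjusted p = 0.0414 with DESeq2). No list had a gene at 0 in all libraries.

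Of the 64 other genes of the pathway, 60 were tested and 0 were called with limma, edgeR or DESeq2. At an unadjusted p under 0.05 there were 6 with limma (5 higher and 1 lower in PROSER1 KO, 10% of those tested against 9.73% of all genes), 5 with edgeR and 7 with DESeq2. The median log2 fold change was 0.00 over these 60 genes, -0.02 over the 10 members and 0.00 over all genes tested. The median size of the difference, whatever its direction, was 0.08 over the 60 genes, 0.12 over the members and 0.09 over all genes.

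The remaining BCL2 family genes included expressed ones and ones with few or no counted read pairs. Bcl2l10 had no read pair in wild-type and at most 0.96 in a KO library, and Hrk, the gene of a BH3-only protein of neurons, was at 0 in all 7, which allows up to 3 read pairs per library. The A1 genes, anti-apoptotic copies that are near identical to each other, had low counts, with at most 4.23 normalized read pairs for Bcl2a1a, 29.0 for Bcl2a1b and 21.6 for Bcl2a1d. How reads that match several copies were counted was not given in the sources used here, so the levels of these copies are uncertain. Bbc3, the gene of PUMA and a p53 target, had 446 to 533 in wild-type and 417 to 509 in KO libraries (log2 fold change 0.00, 95% interval -0.25 to 0.24). Bik, a BH3-only gene, had 23.1, 24.3, 24.1 and 31.3 in wild-type and 32.3, 4.23 and 11.5 in KO libraries (log2 fold change -1.03, 95% interval -2.31 to 0.24, adjusted p = 0.594). Single libraries set its size, with -1.71 without KO replicate 1 and -0.38 without KO replicate 2, and it was -0.70 with edgeR and with DESeq2. Bnip3 and Bnip3l act in the removal of mitochondria. Bnip3l had 4563, 4423, 4774 and 4491 in wild-type and 5150.2, 5048 and 4865 in KO libraries, without overlap (log2 fold change 0.14, standard error 0.046, adjusted p = 0.359). Bnip3 overlapped, at 704 ± 90.7 (SD, n = 4) and 771 ± 41.9 (SD, n = 3).

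Downstream of the mitochondria, 0 of 15 genes were called and all 15 intervals lay within 1.5-fold. Htra2, a mitochondrial protease that degrades inhibitors of caspases after its release, had the lowest adjusted p of any gene of the pathway. Its normalized read pairs were 2999, 2989, 2985 and 2875 in wild-type and 2587, 2702 and 2543 in KO libraries, and every KO library lay below every wild-type library (log2 fold change -0.18, standard error 0.046, adjusted p = 0.203). Htra2 shares 753 exon bases with Aup1, at a mean of 4465, and 535 with Loxl3, both on the opposite strand. Apaf1, the scaffold of the apoptosome, had 2322 to 2428 in wild-type and 2495 to 2883 in KO libraries (log2 fold change 0.16, 95% interval 0.03 to 0.29, adjusted p = 0.403). The channel genes Vdac1 and Vdac2 were the most abundant of this list, with log2 fold changes of 0.03 and -0.04.

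In the death receptor pathway 0 of 8 tested genes were called, and 7 of the 8 had a positive log2 fold change, with a median of 0.09. Ripk1, a kinase that passes on death receptor signals, had 1751 to 1807 normalized read pairs in wild-type and 1847 to 2034 in KO libraries (log2 fold change 0.14, 95% interval 0.02 to 0.26, adjusted p = 0.432). Ripk1 shares exon bases with Serpinb6a on the opposite strand. Casp8, which cleaves BID, had 4672 to 4878 and 4882 to 5572 (log2 fold change 0.09, adjusted p = 0.637), and its inhibitor Cflar had 3372 to 3636 and 3482 to 4068 (log2 fold change 0.10, adjusted p = 0.638).

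Among 16 genes that signal survival to BCL2 proteins, 0 were called and all 16 intervals lay within 1.5-fold. Dynll1 and Dynll2, the dynein light chains that bind BIM and BMF, had the lowest p-values of this list. Dynll1 had 2142 to 2330.3 normalized read pairs in wild-type and 2367 to 2788 in KO libraries (log2 fold change 0.18, 95% interval 0.03 to 0.32, adjusted p = 0.407). Dynll2 had 6050.2 to 6382 and 6545 to 6841 (log2 fold change 0.10, 95% interval 0.01 to 0.19, adjusted p = 0.473). Neither gene had overlapping groups. Kit, the receptor of stem cell factor, and Pim1, a kinase that phosphorylates BAD, were the most abundant, with log2 fold changes of -0.07 and -0.15 (adjusted p = 0.847 and 0.564). Of the 4 genes that set the turnover of MCL1 protein, Usp9x, which removes ubiquitin from MCL1, had a log2 fold change of 0.08, and the ubiquitin ligase genes Fbxw7 and Huwe1 had -0.08 and 0.00, all with intervals within 1.5-fold.

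The p53 list, which includes Pmaip1, had 0 called genes of 12 and a median log2 fold change of -0.02. Trp53 itself had 8454 to 9727 normalized read pairs in wild-type and 9268 to 9893 in KO libraries (log2 fold change 0.05, 95% interval -0.08 to 0.17). Mdm2, the ubiquitin ligase of p53 and its target, had a log2 fold change of 0.10 (95% interval -0.03 to 0.24). Trp53inp1 had 10307, 8880.3, 6736 and 13567 in wild-type and 9094, 6845 and 8495 in KO libraries (log2 fold change -0.24, adjusted p = 0.738), with the wild-type libraries in the order of the plasma cell markers.

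Across the 7 libraries, the genes whose log2 values were most like those of Bcl2l2, of 11995 genes with a mean of at least 100 normalized read pairs, were Sf1 (Pearson's r = 0.981), Zswim8 (0.979) and Casp1 (0.977). Those most like Bcl2l1 were Gm12174 (0.992), Gm6863 (0.975) and Twf2 (0.975). These likenesses are a description over 7 libraries. None of the 6 was called with limma, and the lowest of their adjusted p-values was 0.135, for Casp1.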

How the data were processed

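RNA-seq was analyzed for LSK cells of 4 wild-type and 3 PROSER1 KO libraries, grouped by their labels. The authors trimmed reads (Trimmomatic), mapped them to mm10 (STAR), counted read pairs per gene (featureCounts) and deposited the counts divided by 1 DESeq2 size factor per library, a normalized signal. Whole read pairs were recovered for 100% of values within 0.01. Of 48440 gene identifiers, 48058 (99.2%) matched GENCODE M21 (GRCm38), which gave positions and exon lengths and is not the release the authors used. Genes without a symbol (685) stayed in the tests. Promoters are from RefSeq (GRCm38.p6). Member windows on chromosome 18, where Pmaip1 lies, were left out, so that the windows cover 9 of the 10 members.

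limma 3.58.1 (R 4.3.3, eBayes with trend) was run on log2(normalized count + 1) for the 16251 genes whose mean reached 10. Adding 1 shrinks the fold changes of low genes. Since limma compares means of log2 values, a low gene can still differ more than with DESeq2, as Bik did (-1.03 against -0.70). Calls needed a Benjamini-Hochberg adjusted p under 0.05 over all genes and a fold change above 1.5, and adjusted p-values are those of limma unless another tool is named. Alternatives included edgeR 4.0.16 and DESeq2 1.42.0 on the recovered read pairs, other pseudocounts, filters, scalings and variance moderation, and leaving out each library. Procedures were tested on simulated data: for this comparison, limma called 1 of 50 genes changed 1.3-fold and 70% of genes changed 2-fold, over 16241 genes. A change of 1.3-fold lies under the 1.5-fold minimum of a call, so its rate does not measure the power to detect it.

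The members and gene lists (family, pathway, cell type and immediate early genes) were chosen with earlier results of these data known. Named genes were the members, the other family genes, for each pathway list the 2 lowest p-values and 2 highest means, Proser1, and the 3 genes most like each of the 2 members of lowest p.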

Additional observations from a re-analysis of the deposited data

Results flagged for a closer look

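In the group of 4 wild-type libraries, 35 genes were checked for a library far from the others (Dixon's test of the gap over the range, at 95%), and 4 had one, where chance gives about 1 in 20. Bcl2l2 was 1203 normalized read pairs in wild-type replicate 2 against 1262 to 1265 in the others, a small gap beside a very narrow range, and this library is nearest to the KO libraries. Bad was 561 in wild-type replicate 4 against 656 to 671. Bik was 31.3 in wild-type replicate 4 against 23.1 to 24.3, and Htra2 was 2875 there against 2985 to 2999. Of the 4, 3 are in wild-type replicate 4, the library with the most plasma cell RNA (a sum of 428871 over 7 markers against 170818 to 298722 in the other 6 libraries), whose part was not tested.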

How the results depend on the processing

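Under all 20 alternatives, 0 of the 10 members and 0 of the other pathway genes were called, including the fit without a fold change minimum. The lowest adjusted p of a member under any alternative was 0.291. Of the members, 7 kept the sign of their log2 fold change throughout. Mcl1 ranged from -0.030 (without wild-type replicate 3) to 0.090 over the fits without 1 library. Bid ranged from -0.045 to 0.019 over those fits, and was 0.0030 with the replicate block. Bad ranged from -0.096 to 0.031. Of 25 named pathway genes 21 kept their sign. Bbc3 ranged from -0.055 to 0.089 without 1 library, and was 0.00083 with quantile normalization and 0.051 with the replicate block. Bcl2a1b ranged from -0.95 to 0.11, with 0.11 in the block. Bcl2a1d ranged from -0.40 to 0.73, and was -0.13 with edgeR and -0.11 with DESeq2. Huwe1 ranged from -0.050 to 0.047, and was 0.0015 with TMM scaling, 0.0014 with edgeR, 0.0013 with DESeq2, 0.029 with quantile normalization and 0.026 in the block. The cause of these changes was not tested.

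Replicate numbers did not pair the libraries: the deviations of libraries 1, 2 and 3 correlated at 0.0625, 0.104 and -0.193 with those of the same number in the other group, and wild-type replicate 3 was nearest to KO replicate 2 (0.252). With the block, which drops wild-type replicate 4 for want of a partner, 0 members were called, and 35 genes in all against 42. Over all genes the count depended more on the test: 165 were called with DESeq2, 80 with robust variance moderation, 71 without immunoglobulin genes and 17 without the trend, and 23 (without KO replicate 2) to 42 without 1 library. Differences of the size seen for Bcl2l1 and Bcl2l2 lie under the 1.5-fold minimum, and their intervals reach nearly to 0.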

Other observations

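A ratio within a library does not depend on the size factors. The ratio of Bcl2l1 to Bcl2l2 read pairs, chosen after the values of both genes had been seen, was 0.763, 0.749, 0.739 and 0.621 in the wild-type libraries and 0.905, 1.02 and 0.913 in the KO libraries. The ratio of Bcl2l1 to Bad, chosen in the same way, was 1.37 to 1.44 in wild-type and 1.53 to 1.75 in KO libraries. Bcl2 made up 15.7% to 17.1% of the summed anti-apoptotic RPKM in wild-type and 14.2% to 15.7% in KO libraries, where the highest KO library (15.66%) lay just under the lowest wild-type library (15.74%). By contrast, the ratio of Bcl2 to Bcl2l11 (4.95 to 5.50 and 4.71 to 5.27) and that of Mcl1 to Pmaip1 (49.3 to 103 and 103 to 147) overlapped. None of these ratios was tested, since they were picked with the values known.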
